A study of Mus musculus with 2 samples.

Results

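Cytosolic nucleic acid sensing is described here through 10 genes, taken by gene symbol from the count tables of bone-marrow-derived macrophages and joined by gene identifier. They were 10 of the 51084 gene identifiers that both count tables list, and 9 of them were among the 12796 genes that reached 1 CPM (1 count per 1000000 scaled counts) in a library. Trex1 did not. The cells were macrophages grown in culture from marrow precursors of C57BL/6J mice. The CANDI470 group received CANDI470, an agent known here only by this code name, at 1 mg/mL on culture day 7, and its RNA was taken 12 h later. The PBS control group received PBS (phosphate-buffered saline) in its place. Polyadenylated RNA was sequenced in paired reads of 150 bases, and each group held 1 sample as used here. Columns that the control table gives to a second control and to empty CANDI match no listed sample and were not used. What empty CANDI alone would do cannot be told apart from an effect of CANDI470.

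With 1 sample per group, differences had no replicates behind them and none was tested. Intervals cover counting error only, compare these libraries and not the conditions, and treat reads as independent molecules, which PCR copies are not. The CANDI470 library held 41646905 counts and the PBS control library 28442450. The CANDI470 and PBS control libraries came in separate tables with different annotations. Effects of treatment and of how each library was made and counted cannot be told apart. All 10 genes had the same model length in both tables. In bulk RNA, fewer cells of a type and less RNA per cell cannot be told apart.

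Cells watch the cytosol for nucleic acid that should not be there. MDA5 (Ifih1) binds long double-stranded RNA and LGP2 (Dhx58) is its helicase relative. MDA5 signals through MAVS, a mitochondrial adaptor, while cGAS (Cgas) binds DNA and makes the second messenger cyclic GMP-AMP. These routes meet at the kinases TBK1 (Tbk1) and IKK epsilon (Ikbke), which switch on interferon genes, and macrophages are known as strong producers of that response. TREX1 degrades cytosolic DNA before it can be sensed. PKR (Eif2ak2) halts translation on double-stranded RNA, ADAR1 (Adar) edits such RNA so that it no longer triggers the sensors, and ZBP1 (Zbp1) binds Z-form nucleic acid and can start cell death through RIPK3.

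The promoter windows of 4 entries are shown because they hold, or lack, the short motif to which interferon-activated factors are known to bind. RefSeq windows on GRCm38.p6 span 250 bases before the annotated start and 50 bases after it, and 8 of the 10 genes had at least 1 window. Dhx58 and Zbp1 had no entry. Capitals mark every match on either strand to GAAANNGAA, the core of the interferon-stimulated response element, or to TTCNNNGAA, the gamma-activated sequence, which reads the same on both strands. Each sequence is given 5′ to 3′ on the gene's own strand.
Ifih1, chr2:62646206-62646505, minus strand: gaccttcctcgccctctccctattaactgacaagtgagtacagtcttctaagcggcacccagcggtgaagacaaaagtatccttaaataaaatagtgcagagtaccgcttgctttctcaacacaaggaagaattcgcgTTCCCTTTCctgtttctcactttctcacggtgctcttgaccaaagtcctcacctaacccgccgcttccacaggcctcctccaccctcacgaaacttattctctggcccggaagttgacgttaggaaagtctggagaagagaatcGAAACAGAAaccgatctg
Eif2ak2, chr17:78882523-78882822, minus strand: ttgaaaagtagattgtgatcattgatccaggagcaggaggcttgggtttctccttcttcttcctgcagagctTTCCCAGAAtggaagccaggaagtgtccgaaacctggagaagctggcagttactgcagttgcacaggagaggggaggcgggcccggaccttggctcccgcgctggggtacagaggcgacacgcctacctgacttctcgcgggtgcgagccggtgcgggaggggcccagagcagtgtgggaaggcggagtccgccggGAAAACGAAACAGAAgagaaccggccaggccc
Adar, chr3:89730468-89730767, plus strand, a start inside the gene: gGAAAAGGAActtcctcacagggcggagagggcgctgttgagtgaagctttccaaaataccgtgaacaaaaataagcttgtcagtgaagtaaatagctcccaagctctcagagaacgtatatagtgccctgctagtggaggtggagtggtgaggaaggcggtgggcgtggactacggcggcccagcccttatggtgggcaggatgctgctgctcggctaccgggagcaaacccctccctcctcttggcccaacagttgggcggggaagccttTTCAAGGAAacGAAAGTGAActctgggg
Mavs, chr2:131233813-131234112, plus strand: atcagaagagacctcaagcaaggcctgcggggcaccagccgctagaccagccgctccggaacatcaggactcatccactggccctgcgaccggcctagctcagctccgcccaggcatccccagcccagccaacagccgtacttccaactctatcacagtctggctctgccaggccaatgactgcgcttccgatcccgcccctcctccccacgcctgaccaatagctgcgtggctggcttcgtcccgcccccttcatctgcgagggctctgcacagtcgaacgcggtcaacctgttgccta

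Of the 11 windows of these 8 genes, 3 held GAAANNGAA, 1 each of Ifih1, Eif2ak2 and Adar, while 8.56% of all 32851 windows of this length did. Counting the annotated start as 0, Ifih1 had matches beginning at -112, on the opposite strand, and at 32. The matches of Eif2ak2 began at 18 and 24 and overlapped each other. In Adar, matches began at -249 and 33 of the internal start, and the 2 other Adar windows had none. The bases just after this internal start were in no GENCODE M21 transcript of Adar, while those of the 2 other windows were. Those after the Tbk1 start were likewise in no Tbk1 transcript. TTCNNNGAA stood at -178 in Eif2ak2 and at 22 in the Adar window of the internal start, against 8.30% of all windows. The NF-kB consensus was found in 1 of the 2 Trex1 windows and in 8.46% of all windows. None of these letters was in the windows of Mavs, Cgas, Tbk1 or Ikbke. As given below, Cgas and Tbk1 were at least 2-fold higher in CANDI470, Ikbke lay within 2-fold and Mavs was at least 2-fold lower. A match is a description of letters, not a binding site.

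**Figure D1:**
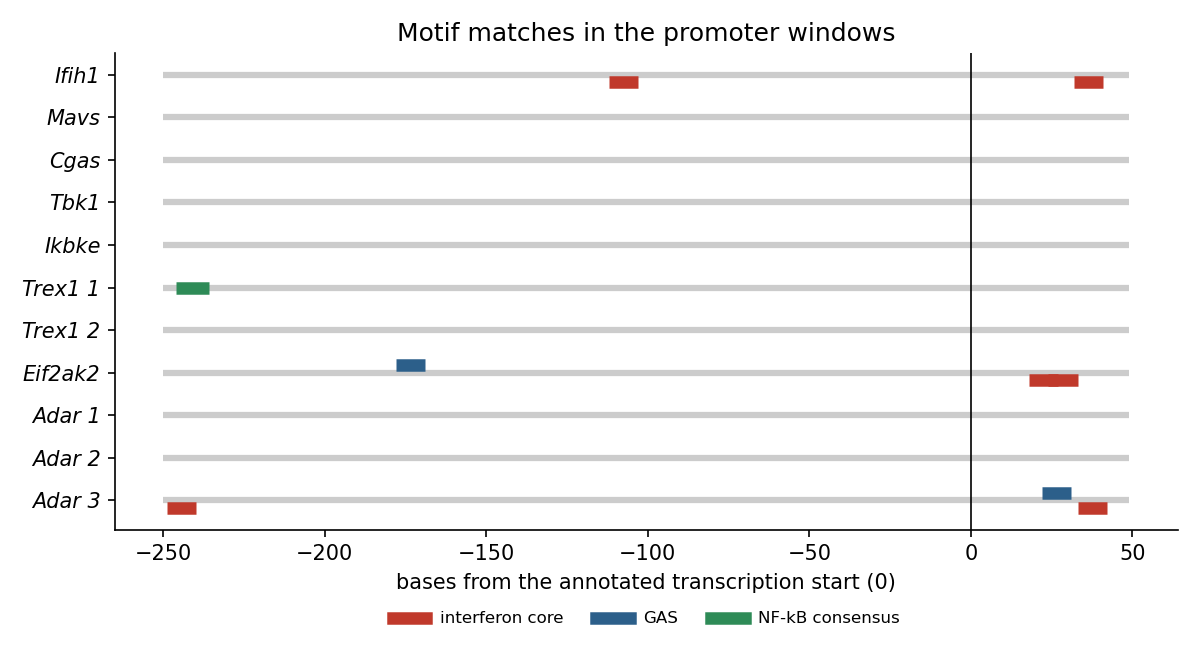
Motif matches in the 11 promoter windows of 8 genes, by distance in bases from the annotated start (0); the minus and plus sides of the axis are before and after the start. The interferon core appears in Ifih1, Eif2ak2 and the third Adar window, the gamma-activated sequence (GAS) in Eif2ak2 and the third Adar window, and the NF-kB consensus in the first Trex1 window; marks are offset for legibility.

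Most of the measured genes were higher in CANDI470. Of the 9 measured genes, 7 were at least 2-fold higher in CANDI470, against 24.1% of all genes tested, and 5 were at least 4-fold higher, against 10.7%. Mavs was the 1 gene at least 2-fold lower, against 25.7% of all genes, and none was at least 4-fold lower, against 8.17%. Ikbke lay within 2-fold. The members were chosen with earlier results of these data known, so these shares do not stand apart from that choice. The median difference, on the scale of log2(CPM + 1) in CANDI470 minus PBS control, was 2.43 over the 9 genes, with a range of -1.30 to 5.33, and -0.11 over all genes tested. CPM were scaled with TMM factors, which assume that most genes are level between libraries, and folds of 2 and 4 are rules of size and not of significance. Among all genes past 2-fold, 48.4% were higher in CANDI470; scaling by library totals gave 28.8% and TPM (the share of counts per gene length, scaled to 1000000) gave 36.9%.

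**Figure D2:**
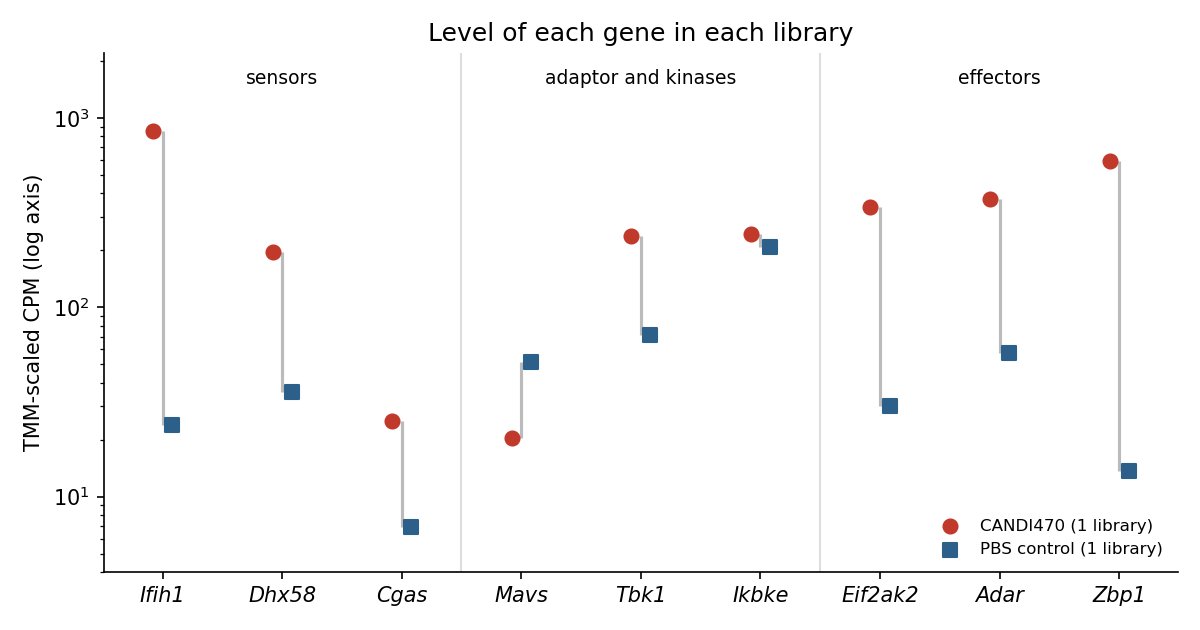
TMM-scaled CPM of the 9 measured genes, on a log axis, in the CANDI470 library (circles) and the PBS control library (squares), each 1 library, ordered by role. Ifih1, at 850 CPM in CANDI470 and 23.8 CPM in PBS control, and Zbp1 are farthest apart; Mavs alone has its CANDI470 point below its PBS control point.

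Among the sensors, Ifih1 had the widest gap. Ifih1 (ENSMUSG00000026896, chromosome 2, 62595798 to 62646255, minus strand, GRCm38) had 28508 counts or 850 CPM in CANDI470 and 833 counts or 23.8 CPM in PBS control. Its CPM in CANDI470 was 35.6 times that in PBS control (95% exact interval 33.3 to 38.2), a log2 difference of 5.10, at place 221 among the 12796 genes tested. No other gene overlaps it in either table.

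Dhx58, whose product lacks the signalling domains of its relatives and helps MDA5 to assemble on RNA, was higher too but by less. The gene (ENSMUSG00000017830, chromosome 11, 100694884 to 100704271, minus strand) had 6579 counts or 196 CPM in CANDI470 and 1247 counts or 35.7 CPM in PBS control, a ratio of 5.50 (95% interval 5.17 to 5.84) and a log2 difference of 2.43. Within a library, the Dhx58 count per 1000 Ifih1 counts was 231 (95% interval 225 to 237) in CANDI470 and 1497 (1370 to 1636) in PBS control. Such a ratio needs no scaling between libraries, and here it was 0.154 times as high in CANDI470. Per gene length, from TPM, there were 576 of Dhx58 per 1000 of Ifih1 in CANDI470 and 3736 in PBS control, so Ifih1 was the more abundant transcript in CANDI470 and Dhx58 in PBS control. An annotated opposite-strand transcript, Dhx58os, had 21 counts in CANDI470 and 18 in PBS control.

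Cgas, the DNA sensor, was the scarcest of the sensors in both libraries, also per gene length. It (ENSMUSG00000032344, named Mb21d1 in the control table, chromosome 9, 78430526 to 78443237, minus strand) had 844 counts or 25.2 CPM in CANDI470 and 242 counts or 6.93 CPM in PBS control. That was a ratio of 3.63 (95% interval 3.15 to 4.21) and a log2 difference of 1.72. Its interval was the widest of the 9 genes, with a half-width of 0.21 on the log2 scale.

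Mavs, the adaptor through which MDA5 signals, went the other way. It (ENSMUSG00000037523, chromosome 2, 131234063 to 131248025, plus strand) had 681 counts or 20.3 CPM in CANDI470 and 1800 counts or 51.5 CPM in PBS control. The ratio was 0.394 (95% interval 0.360 to 0.431) and the log2 difference -1.30. With the trends of the difference in GC content and transcript length removed, the difference was -0.83, which is within 2-fold. The 16 other alternatives kept it at least 2-fold lower.

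The kinases differed from each other. Tbk1 (ENSMUSG00000020115, chromosome 10, 121546455 to 121586787, minus strand) had 7985 counts or 238 CPM in CANDI470 and 2490 counts or 71.3 CPM in PBS control, a ratio of 3.34 (95% interval 3.19 to 3.50) and a log2 difference of 1.73. Ikbke (ENSMUSG00000042349, chromosome 1, 131254343 to 131279606, minus strand) had 8161 counts or 243 CPM in CANDI470 and 7234 counts or 207 CPM in PBS control, a ratio of 1.18 (95% interval 1.14 to 1.21) and a log2 difference of 0.23. The sign of that small difference depends on the scaling, since it was -0.37 with library totals and -0.08 with TPM. The order of the kinases can be read within a library. For each 1000 counts of Tbk1 there were 1022 of Ikbke (95% interval 991 to 1054) in CANDI470 and 2905 (2775 to 3042) in PBS control, so the ratio in CANDI470 was 0.352 times that in PBS control. Per gene length, from TPM, these become 443 in CANDI470 and 1260 in PBS control, so Tbk1 was the more abundant kinase transcript in CANDI470 and Ikbke in PBS control. Opposite-strand transcripts annotated across Ikbke were scarce, with 162 counts in CANDI470 and 115 in PBS control for Gm28913, and 32 counts in CANDI470 and 10 in PBS control for Gm28914.

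The adaptor and the kinase below it parted in the same way. Mavs counts per 1000 Tbk1 counts were 85.3 (95% interval 78.8 to 92.2) in CANDI470 and 723 (680 to 768) in PBS control, a ratio of ratios of 0.118.

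Trex1, the exonuclease that clears cytosolic DNA, could not be measured from these tables. The gene (ENSMUSG00000049734, chromosome 9, 109057933 to 109059734, minus strand) was listed with 0 counts in both libraries. All 1147 of its exon bases, or 100%, are also exon bases of Atrip on the same strand in GENCODE M21, and a counter that drops reads falling on more than 1 gene assigns none to such a gene. Of 131 protein-coding genes whose exon bases are wholly shared in this way, 124 (94.7%) had 0 counts in both libraries, against 5766 of 19964 (28.9%) with no shared exon base. Whether that sharing accounts for the 0 of Trex1 was not tested, because the counting rule is not given in the sources used here. No statement on Trex1 expression follows from the 0. Atrip, whose product works in the replication checkpoint, had 9.66 CPM (324 counts) in CANDI470 and 12.2 CPM (427 counts) in PBS control, a log2 difference of -0.31. None of the 9 other genes shares exon bases with another gene on its strand.

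The effectors were all higher in CANDI470, Zbp1 the most. Zbp1 (ENSMUSG00000027514, chromosome 2, 173206612 to 173218923, minus strand) had 19839 counts or 591 CPM in CANDI470 and 478 counts or 13.7 CPM in PBS control. The ratio was 43.2 (95% interval 39.5 to 47.4) and the log2 difference 5.33, at place 196 among the 12796 genes tested and the largest of the 9. Its product carries Z-nucleic-acid binding domains, which in mammals it shares only with the long form of ADAR1.

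Eif2ak2, the gene of PKR, came next among the effectors. It (ENSMUSG00000024079, chromosome 17, 78852564 to 78882573, minus strand) had 11305 counts or 337 CPM in CANDI470 and 1050 counts or 30.1 CPM in PBS control, a ratio of 11.2 (95% interval 10.5 to 12.0) and a log2 difference of 3.44. Its promoter window holds the overlapping pair of interferon core matches shown above. Of the opposite-strand genes that overlap it, the control table gives 102 counts to Gm26637, beside 1050 for Eif2ak2, and 2 to a 5S RNA copy. The CANDI470 table lists no Gm26637 there and 1 count for a 5S RNA. The part of this difference in annotation in the ratio was not tested.

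Adar, the RNA-editing enzyme, had the smallest gap of the effectors. It (ENSMUSG00000027951, chromosome 3, 89715022 to 89753446, plus strand) had 12547 counts or 374 CPM in CANDI470 and 1997 counts or 57.2 CPM in PBS control, a ratio of 6.54 (95% interval 6.24 to 6.86) and a log2 difference of 2.69. Counts per gene do not separate the long, interferon-inducible form of ADAR1 from the shorter constitutive form, which begin at different promoters. Chrnb2, on the opposite strand, had 65 counts in CANDI470 and 70 in PBS control.

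Set against each other within a library, the effectors also differed. Zbp1 counts per 1000 Adar counts were 1581 (95% interval 1546 to 1617) in CANDI470 and 239 (216 to 265) in PBS control, a ratio of ratios of 6.61. Eif2ak2 counts per 1000 Adar counts were 901 (878 to 924) in CANDI470 and 526 (487 to 567) in PBS control, a ratio of ratios of 1.71. Per gene length, from TPM, there were 3637 of Zbp1 per 1000 of Adar in CANDI470 and 551 in PBS control, and 1431 of Eif2ak2 per 1000 of Adar in CANDI470 and 835 in PBS control. Both effectors thus stood above Adar in CANDI470 and below it in PBS control.

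Levels per gene length put the genes in a different order in each library. On the TPM scale CANDI470 ran from Zbp1 at 463 through Ifih1 at 288, Eif2ak2 at 182, Tbk1 at 168, Dhx58 at 166, Adar at 127 and Ikbke at 74.6 to Cgas at 16.9 and Mavs at 16.8. PBS control ran from Ikbke at 78.9 TPM through Tbk1 at 62.6, Mavs at 52.9, Dhx58 at 37.5, Adar at 24.2, Eif2ak2 at 20.2, Zbp1 at 13.3 and Ifih1 at 10.03 to Cgas at 5.77. In CANDI470 the top places were thus held by an effector and a sensor, and in PBS control by the kinases. Neighbours in these orders were apart by more than counting error except Tbk1 and Dhx58 in CANDI470, at a ratio of 1.02 (95% interval 0.983 to 1.05), and Cgas and Mavs in CANDI470, at 1.00 (0.907 to 1.11). These intervals take the gene-model lengths as given. Ifih1 had a model length of 8165 bases and a longest transcript of 5470, and Zbp1 had 3529 and 3325. With longest transcripts as lengths, Ifih1 would stand above Zbp1 in PBS control. Likewise, Dhx58 and Tbk1 would stand above Eif2ak2 in CANDI470. Close places in either order thus depend on the length used. How far the order would hold in another culture is unknown with 1 library per group.

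**Figure D3:**
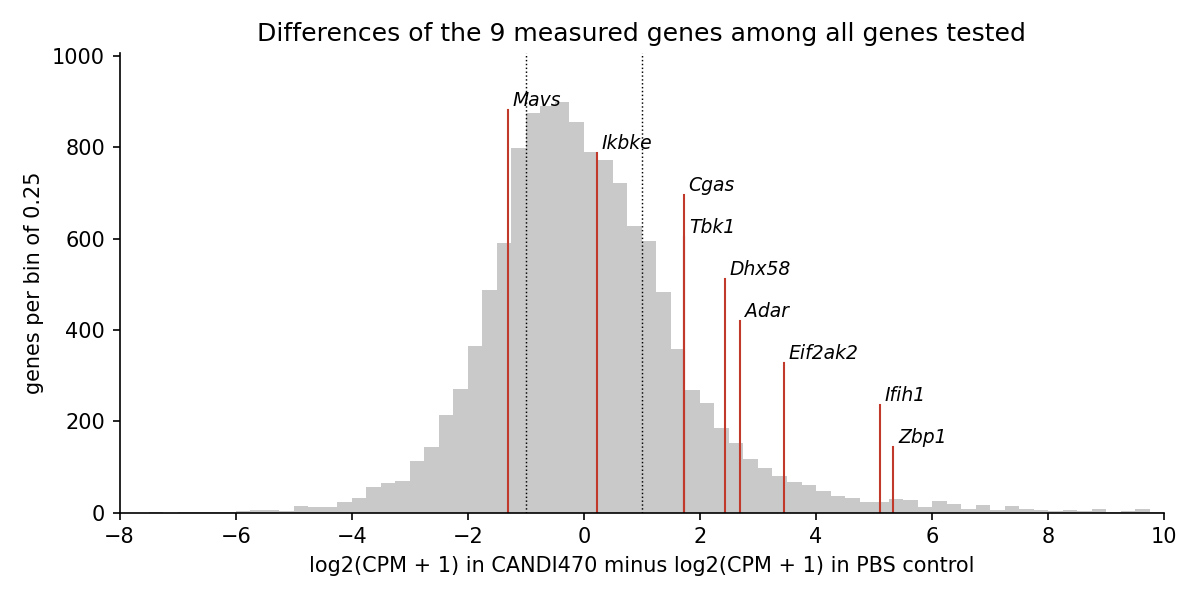
Histogram of log2(CPM + 1) in CANDI470 minus PBS control over 12796 genes, in bins of 0.25, with a line at each of the 9 measured genes; line heights carry no value and the dotted lines mark 2-fold. Zbp1 and Ifih1 sit in the right tail at 5.33 and 5.10, Ikbke near the centre at 0.23, and Mavs left of the 2-fold line at -1.30; genes beyond the axis range of -8 to 10 are not drawn.

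Differences here depend on the scaling between libraries, since library totals moved the median of all genes to -0.69 and TPM moved it to -0.44. Relative to the median gene, the differences were 5.45 for Zbp1, 5.21 for Ifih1, 3.56 for Eif2ak2, 2.80 for Adar, 2.54 for Dhx58, 1.84 for both Tbk1 and Cgas, 0.35 for Ikbke and -1.19 for Mavs. Over 17 alternatives, Zbp1 stayed between 5.08 and 5.56 above the median gene, Ifih1 between 4.57 and 5.32, and Eif2ak2 between 3.15 and 3.66. Cgas stayed between 1.38 and 1.97 and Tbk1 between 1.61 and 1.94. Ikbke was above the median gene by 0.21 to 0.44 in each of them, and Mavs below it by differences of -1.26 to -0.83. The members at least 2-fold higher numbered 7 under each of the 17. Not all of the 17 could move these values. Centring leaves a difference from the median gene as it was, and a change of minimum leaves each member's own difference as it was.

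**Figure D4:**
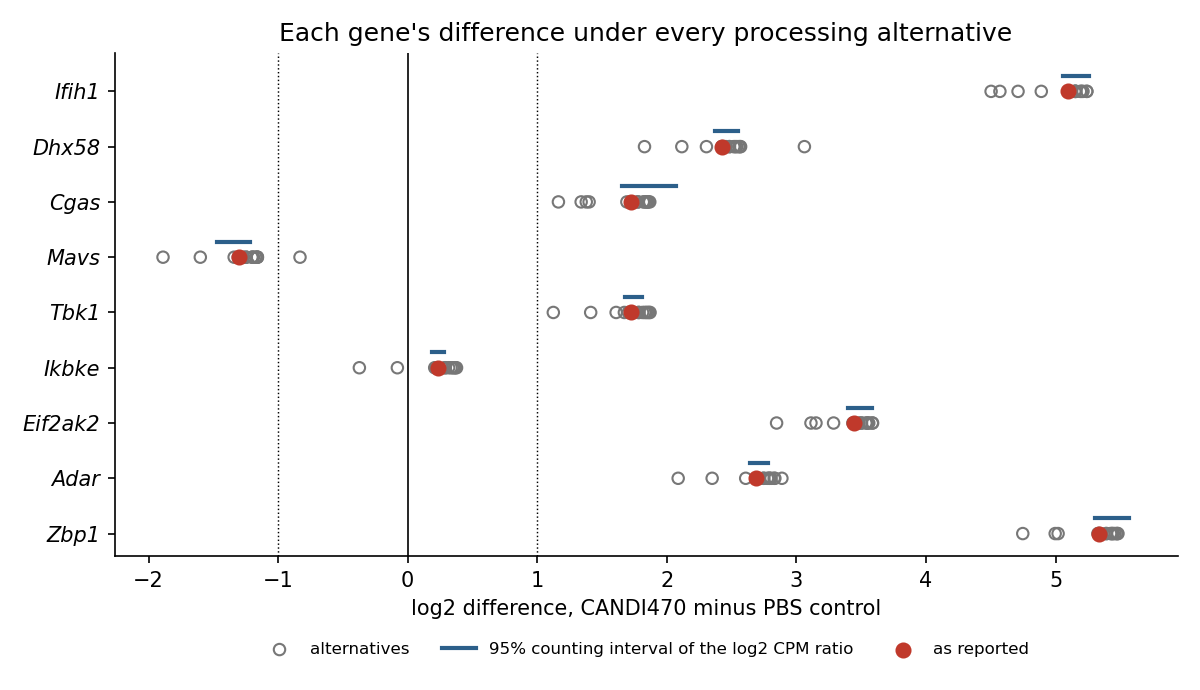
Log2 difference, CANDI470 minus PBS control, of each of the 9 measured genes as reported (filled circles), under 17 processing alternatives (open circles), and the 95% counting interval of the log2 CPM ratio (bars, set above the points); dotted lines mark 2-fold. The 7 genes to the right stay past 2-fold throughout; Ikbke crosses 0, reaching -0.37, and 1 alternative brings Mavs to -0.83.

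The libraries also differed with base composition, and this runs beside the members' values. Across all genes the difference fell with transcript GC content (Spearman's rho -0.26, a description over genes that share the 2 libraries), from a median of 0.33 in the bin with a median GC content of 38.0% to -1.02 in the bin at 60.7%. Genes of similar GC content to Mavs, which has 53.9%, had a median difference of -0.42, and that same bin held Dhx58 at 53.9% and Adar at 53.4%, both higher in CANDI470. For Ifih1, at 42.8%, the bin median was 0.43, for Eif2ak2, at 43.9%, 0.23, and for Zbp1, at 51.0%, -0.19. The part of GC content in these differences was not tested beyond the alternative that removes its trend.

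The cell type markers moved as well. All 7 macrophage markers were present in both libraries and summed to 11367 CPM in CANDI470 and 20459 CPM in PBS control, with Fcgr1 and Mertk at least 2-fold higher and Csf1r and Lyz2 at least 2-fold lower. The 7 neutrophil markers summed to 302 CPM in CANDI470 and 6.15 CPM in PBS control, 6 of them at least 2-fold higher and Ly6g at 0 in PBS control. The 4 mast cell and basophil markers summed to 34.8 CPM in CANDI470 and 0.515 CPM in PBS control, all 4 at least 2-fold higher, with Fcer1a at 0 in PBS control. The 5 dendritic cell markers summed to 11.2 CPM in CANDI470 and 1.09 CPM in PBS control, Siglech being at 0 in CANDI470, and the 4 fibroblast markers to 4.65 CPM in CANDI470 and 0.0286 CPM in PBS control, with Pdgfra at 0 in both. T and NK cell markers summed to 2.44 CPM in CANDI470 and 0.315 CPM in PBS control, with Ncr1 at 0 in both, and B cell markers to 0.596 CPM in CANDI470 and 0.143 CPM in PBS control. The part of other cells in the members' differences was not tested.

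Other genes of the pathway were followed in 7 lists of 93 genes, none of them a member. The lists do not cover the whole pathway. Of the 88 that were measured, 39 were at least 2-fold higher in CANDI470, 16 were at least 2-fold lower and 33 lay within 2-fold, with a median of 0.58, against 24.1% higher, 25.7% lower and a median of -0.11 over all genes. The genes named in each list are those with the largest differences. The lists too were chosen with earlier results of these data known, so their counts do not stand apart from that choice. The lists were not alike.

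Of 12 other RNA sensors and cofactors, 5 (41.7%, against 24.1% of all genes) were at least 2-fold higher. None was at least 2-fold lower, against 25.7%. The median was 0.63, and it was 0.03 with library totals. Ddx60, a helicase described as a RIG-I cofactor, had 380 CPM in CANDI470 and 12.5 CPM in PBS control, a log2 difference of 4.82. RIG-I itself (Ddx58), which binds RNA with 5′ triphosphates, had 499 CPM in CANDI470 and 50.8 CPM in PBS control, or 3.27. Zc3hav1, the CpG-binding antiviral protein ZAP, differed by 2.84 and Trim25, the ubiquitin ligase that acts on both ZAP and RIG-I, by 2.44. The RIG-I gene thus stood between Ifih1 and Dhx58 in size of difference.

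Among the listed genes of the DNA branch, 3 of 12 measured (25%, against 24.1% of all genes) were at least 2-fold higher. At least 2-fold lower were 4 (33.3%, against 25.7%). These shares are near those of all genes. The median was -0.74, and it was -1.31 with library totals and -0.20 with GC and length trends removed. Trim56, a ubiquitin ligase that acts on cGAS, had 159 CPM in CANDI470 and 32.9 CPM in PBS control, a difference of 2.24, and Abcc1, an exporter of cyclic GMP-AMP, differed by 1.96. Slc19a1, the folate carrier that imports cyclic dinucleotides in human cells, had 10 counts in CANDI470 and 485 in PBS control, a ratio with a 95% interval of 0.0102 to 0.0398. Enpp1, which degrades cyclic GMP-AMP outside the cell, had 6.11 CPM in CANDI470 and 20.2 CPM in PBS control, a difference of -1.57.

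Of 14 adaptors and kinase scaffolds, 10 were at least 2-fold higher, against 24.1% of all genes. At least 2-fold lower were 2, against 25.7%. The median was 1.90, and it was 1.30 with library totals. Irf7, the interferon-inducible transcription factor phosphorylated by these kinases, had 2131 CPM in CANDI470 and 68.5 CPM in PBS control, a difference of 4.94. The TBK1-binding scaffolds Tank and Azi2 differed by 3.44 and 2.47, and Traf3, the ubiquitin ligase between MAVS and the kinases, by 2.45. Irf3, the constitutive relative of Irf7, had 20.9 CPM in CANDI470 and 50.8 CPM in PBS control, a difference of -1.24, which was -0.42 with GC and length trends removed.

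**Figure D5:**
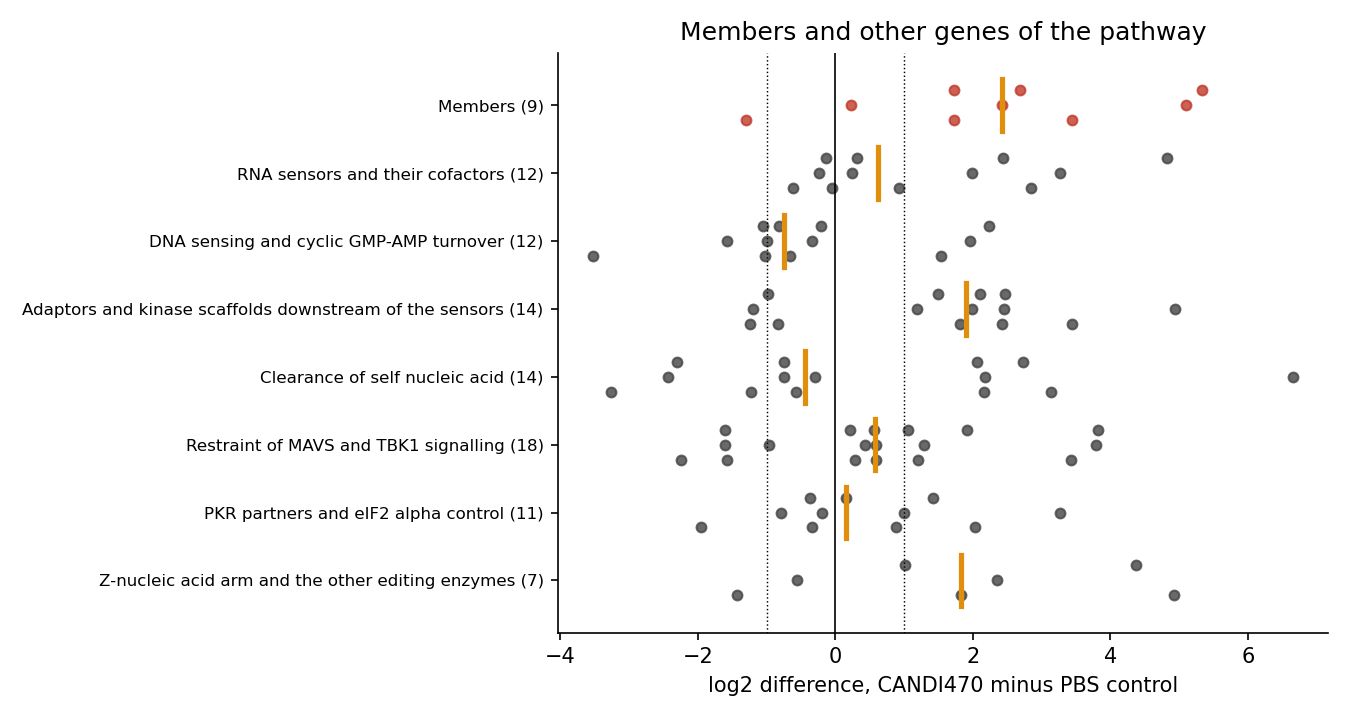
Log2 difference, CANDI470 minus PBS control, of the 9 measured members and of the measured genes of 7 pathway lists, with the number of genes in brackets, a vertical bar at each median and dotted lines at 2-fold; points are staggered for legibility. The members have a median of 2.43, adaptors and scaffolds of 1.90 and the DNA sensing list of -0.74.

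Of 14 nucleases and related enzymes that clear self nucleic acid, 6 (42.9%, against 24.1% of all genes) were at least 2-fold higher and 4 (28.6%, against 25.7%) at least 2-fold lower. The median was -0.44, and it was -1.01 with library totals and 0.17 with GC and length trends removed. Samhd1, which depletes deoxynucleotides, had 2457 CPM in CANDI470 and 368 CPM in PBS control, a difference of 2.74. Dnase1l3, a secreted DNase, had 4204 counts in CANDI470 and 9 in PBS control, a ratio with a 95% interval of 256 to 1065. Dnase2a, the lysosomal DNase, had 22.5 CPM in CANDI470 and 225 CPM in PBS control, a difference of -3.27. Rnaset2b, a lysosomal RNase, differed by 3.14, a value that is uncertain because Rnaset2a is a near-identical copy.

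Among genes known to restrain MAVS and TBK1, 7 of 18 measured (38.9%, against 24.1% of all genes) were at least 2-fold higher. At least 2-fold lower were 4 (22.2%, against 25.7%), a share near that of all genes. The median was 0.58, and it was -0.02 with library totals. Tax1bp1, an autophagy receptor, had 1510 CPM in CANDI470 and 108 CPM in PBS control, a difference of 3.80. Nlrc5, better known as the activator of MHC class I genes, differed by 3.82 and Trim30a by 3.42. Rnf5, a ubiquitin ligase that acts on MAVS, had 9.33 CPM in CANDI470 and 47.9 CPM in PBS control, a difference of -2.24.

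Around PKR, 3 of 11 partners and regulators of eIF2 alpha (27.3%, against 24.1% of all genes) were at least 2-fold higher. That share is near the one of all genes. At least 2-fold lower was 1 (9.09%, against 25.7%). The median was 0.15, and it was -0.45 with library totals and -0.16 with TPM. Ppp1r15b and Ppp1r15a, the subunits that direct a phosphatase to eIF2 alpha and so oppose PKR, differed by 3.26 and 2.03. Prkra, the PKR activator PACT, had 5.25 CPM in CANDI470 and 23.1 CPM in PBS control, a difference of -1.95.

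Around ZBP1 and the editing enzymes, 5 of the 7 measured genes were at least 2-fold higher, against 24.1% of all genes. At least 2-fold lower was 1, against 25.7%. The median was 1.84, and it was 0.82 with library totals and 0.53 with no minimum. None of the genes at least 2-fold higher was an editing enzyme. Of the listed editing enzymes and their relatives only Adat1 reached the minimum, so these counts say little about editing. Mlkl, the executioner of necroptosis, had 237 CPM in CANDI470 and 6.84 CPM in PBS control, a difference of 4.92. Cflar, which holds caspase-8 and necroptosis in check, had 1741 CPM in CANDI470 and 82.7 CPM in PBS control, or 4.38. Ripk3, the kinase that ZBP1 recruits, differed by 2.35 and Casp8 by 1.84. Adat1, a tRNA-editing relative of ADAR1, had 19 counts in CANDI470 and 112 in PBS control, a difference of -1.42, which stayed at least 2-fold lower under 14 of 16 alternatives and was -0.56 with a pseudocount of 5 CPM.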

How the data were processed

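Polyadenylated RNA of C57BL/6J bone-marrow-derived macrophages was sequenced in 1 CANDI470 and 1 PBS control sample. The deposited count tables hold raw counts per gene, per the file headers; the authors also deposited log2 values, which for 100% of their 12726 genes equalled log2(c + 1), c being the count times a constant of the library, within 0.1%. The submitters' processing notes name mm10; the aligner, counter and strand setting are not given in the sources used here. Another 6 per-sample columns, named for a second control and for empty CANDI, match no listed sample and were not used. Tables were joined on 51084 identifiers, with 99.4% of all CANDI470 and 99.5% of all PBS control counts. The TMM factors (edgeR 4.0.16, R 4.3.3), fitted on all joined identifiers, were 0.810 for CANDI470 and 1.23 for PBS control. Genes had to reach 1 CPM in either library, and the pseudocount was 1 CPM, which understates differences of low genes. Intervals are exact Clopper-Pearson (scipy 1.17.1). A 0 allows up to 3 counts, or 0.0894 CPM in CANDI470 and 0.0859 CPM in PBS control. GC content came from GENCODE M21 transcripts (99.9% of genes) and promoters from RefSeq. Named genes were all members and, per list, up to 4 with the largest absolute difference, plus the farthest in the other direction past 2-fold. A gene that this rule names is not reported here. Alternatives were other scalings (library totals, TPM, size factors from DESeq2 1.42.0, upper quartiles and the deposited log2 values), pseudocounts, minimums, gene subsets, thinned CANDI470 counts and removal of GC and length trends over 20 bins of each. The members and lists were chosen with earlier results of these data known. The procedure was tested on simulated counts drawn around a shared profile, with most genes level and no trend with GC content. That setting meets the TMM assumption and differs from these libraries, so it cannot test the scaling used here.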

Additional observations from a re-analysis of the deposited data

How the results depend on the processing

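No paired analysis was possible because each group has 1 sample as used here, and for the same reason no replicate could be left out. Against 17 alternatives, 4 of them chosen after seeing the data (centring on the median gene, and TMM on genes above the minimum), no member or named gene past 2-fold changed sign and the members at least 2-fold higher stayed 7. The members at least 2-fold lower became 0 with GC and length trends removed. With library totals the median over members was 1.83, all genes at least 2-fold lower numbered 5152 and pathway genes lower 28. Pathway genes lower numbered 10 with GC and length trends removed, and all genes lower 1972 with a pseudocount of 5 CPM. The causes were not tested. The planned ratio of Trex1 to Cgas could not be computed, since Trex1 had 0 counts. Counting error limits the members least where counts are high, its log2 half-width reaching 0.21 for Cgas; spread between cultures is unknown.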
